A study of Mus musculus with 9 samples.

Results

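The genes described here are 42 genes of ribosome biogenesis and RNA polymerase I (Pol I), taken by symbol from a fixed list of names with no cut on a measured value. That list was chosen with earlier results of these data known. Each of the 37022 genes of the table was represented by 1 transcript row, that of highest mean gene-body signal. All 42 members were among the 15942 genes tested in the gene body, and 40 were among the 7678 genes tested in the pause region, the stretch near the transcription start. Wdr75 and Rrp1b did not pass the filter on low values there. The series sequenced nascent RNA of mouse CD8+ T cells (killer T cells), pulled down after 30 minutes with 0.2 mM of the clickable uridine analogue 5-ethynyl uridine, in read pairs of 100 bases. Its 9 libraries fall into acutely stimulated cells, chronically stimulated cells, and chronically stimulated cells in which the kinase MEK was also inhibited (called MEK-inhibited below), with 3 libraries in each group. The labels give no mouse strain, age, stimulus, duration or inhibitor, and none says that replicates came from separate animals or cultures, so p-values measure the spread between these libraries, which may be technical.

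A ribosome is built in the nucleolus, where Pol I copies the ribosomal DNA into a long precursor RNA. Rrn3 and Ubtf bring the polymerase to its promoter, small nucleolar ribonucleoproteins (snoRNPs) guide methylation and pseudouridylation of the precursor, and large sets of assembly factors cut and fold it into the small and the large subunit. The genes of all these proteins are themselves copied by RNA polymerase II, which is what the gene-body signal of the members reports. In T cells, production of ribosomes rises when a resting cell is activated and grows before dividing.

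All values below are the signal deposited by the authors, rescaled so that a trimmed mean of genes is level between libraries, and directions are relative to that mean. Per library, the kept gene-body rows added up to between 48601800 and 52216200 as deposited, but this is a scaled coverage and the depth in reads is unknown. The scaling bears on every count below. Under scaling to library totals, the median log2 fold change of all genes tested moved from -0.02 to -0.50 between chronic and acute libraries, from 0.04 to 0.14 between MEK-inhibited and chronic libraries, and from 0.00 to -0.37 between MEK-inhibited and acute libraries. As a check of the labelled cell type, 7 of 7 markers listed for CD8 T cells passed the filter. They are Cd8a and Cd8b1 beside Cd3e, Cd3d, Cd3g, Cd2 and Lck, which other T cells share. Their summed scaled signals were 25113 to 29073 in acute, 17020 to 18045 in chronic and 21499 to 23339 in MEK-inhibited libraries. Cd8a itself averaged 4061, 969 and 2881 in that order, Cd8b1 1872, 1229 and 2041, and Lck, the largest, 10393, 7133 and 7979. Like Cd8b1, Cd3d was highest in MEK-inhibited libraries, while Cd3g was highest in chronic ones. Cd4, which marks the other main class of T cells, also passed, with means of 442, 234 and 116 in acute, chronic and MEK-inhibited libraries. It was thus lowest in MEK-inhibited libraries, whereas Cd8a was lowest in chronic ones. Of 5 B cell markers 2 passed, with sums of 534 to 565, 189 to 219 and 160 to 435, and of 5 myeloid markers 2 passed, with sums of 161 to 227, 112 to 171 and 90.5 to 218. NK cell and erythroid markers did not pass, with sums of at most 54.2 and 29.7. Ncr1 was listed at 0 in all MEK-inhibited, Hba-a1 in all acute and Hbb-bs in all chronic libraries. The part of these marker differences in the members' values was not tested, and in such bulk libraries fewer cells of a type and less RNA per cell cannot be told apart.

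The members had high summed gene-body signal, a value that also grows with gene length. Their mean scaled gene-body signal had a median of 3809 and ran from 682 for Polr1c to 16706 for Ncl, against a median of 600 over all genes tested. Per kilobase of the annotated transcript, introns included, the mean level in acute libraries was highest for Npm1 (1411), Ncl (1263) and Nop56 (1232), and lowest for Ddx10 (36.2) and Polr1e (52.0). The median standard error of a member's log2 fold change was 0.11, against 0.20 over all genes tested. As a set, the members stood highest in acute and lowest in MEK-inhibited libraries. The median over the members of the log2 deviation from each gene's mean was 0.15, 0.20 and 0.16 in acute replicates 1 to 3, -0.03, 0.00 and 0.12 in chronic replicates, and -0.17, -0.29 and -0.14 in MEK-inhibited replicates. The groups did not overlap in this median, though chronic replicate 3 lay close to the acute libraries, and MEK-inhibited replicate 2 was the lowest of all. Member by member the order varied. The group means fell from acute over chronic to MEK-inhibited libraries at 24 members, and at 11, among them Npm1, Gnl3, Mybbp1a, Utp20, Nop2, Rrp12 and Wdr12, the chronic mean was highest and the MEK-inhibited mean lowest. The chronic mean was highest and the acute mean lowest at 2 (Polr1c and Nhp2), the chronic mean was below both others at 3 (Polr1e, Rrn3 and Bysl), and the MEK-inhibited mean was highest and the acute mean lowest at 2 (Ubtf and Noc4l).

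**Figure D1:**
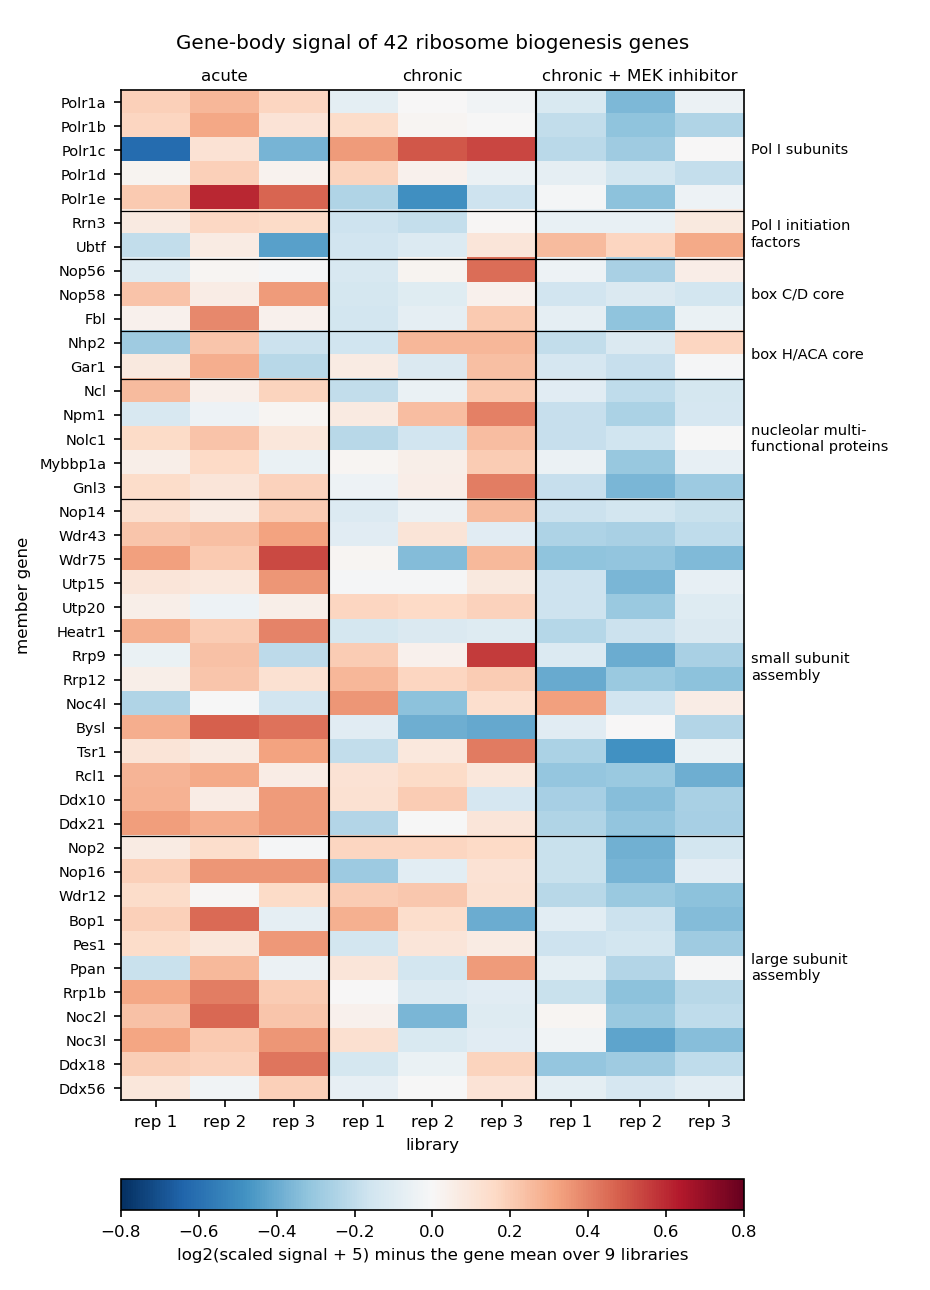
Gene-body signal of the 42 members (rows, by role) in the 9 libraries (columns), as log2(scaled signal + 5) minus the gene's mean over the 9 libraries; red is above and blue below that mean. In 24 rows the group means fall from acute over chronic to MEK-inhibited libraries, in 11 the chronic mean is highest and the MEK-inhibited lowest, and the other rows, among them Polr1c, Polr1e, Bysl and Ubtf, follow other orders.

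Compared with acute stimulation, chronic stimulation came with lower signal at 13 members and higher signal at 2. The largest differences were at Polr1c, which rose by 0.75 on the log2 scale, and at Polr1e and Bysl, which fell by 0.73 and 0.70. Over all genes tested, 15.9% were called lower and 18% higher by limma at an adjusted p under 0.05, 33.9% in all, so the members' total of 15 called was near the background and its balance lay on the lower side. Among the 7543 genes with a mean signal at or above that of the lowest member, 23.4% were called lower and 22.8% higher. The median log2 fold change of the members was -0.15, against -0.02 over all genes, and 28 of the 42 were below 0, against 51.2% of all genes. Groups did not overlap, with chronic lower, at 14 members, against 21.9% of all genes, and with chronic higher at 4, against 22.4%. At an unadjusted p under 0.05 limma called 16 members, against 42.9% of all genes. A log2 difference of at least 1 in size was seen at 0 members and at 17.8% of all genes tested. The count of called members was 9, 9 and 8 without acute replicate 1, acute replicate 3 and chronic replicate 2. Scaling to library totals gave 0 higher and 37 lower, with a median of -0.64 beside the -0.50 of all genes. As that scaling moves all genes, the shares of all genes above are no background for this count.

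With MEK inhibition, compared with chronic stimulation alone, 11 members fell and none rose. Those with the largest falls were Polr1c (-0.62), Rrp12 (-0.56), Rrp9 (-0.52), Wdr12 (-0.46) and Rcl1 (-0.45). The share of all genes tested that was called lower was 7.65%, with 9.93% higher and 17.6% in all. Among the 7543 genes with a mean signal at or above that of the lowest member, 11.3% were called lower and 15.2% higher. At an unadjusted p under 0.05 limma called 18 members, against 28.7% of all genes. The members' median was -0.20, against 0.04 over all genes, and 37 of the 42 were below 0, against 45.9% of all genes. Groups did not overlap, with MEK-inhibited libraries lower, at 21 members, against 14.4% of all genes, and in the other direction at 1 member, Ubtf, against 17.8%. The median was -0.15 without MEK-inhibited replicate 2, which left 7 called members, and -0.28 without MEK-inhibited replicate 1. Scaling to library totals left 1 member higher (Ubtf) and 1 lower (Rrp12), with a median of -0.10 beside 0.14 for all genes. For these counts, too, the shares of all genes above are no background.

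Set directly against acute stimulation, MEK-inhibited libraries had lower signal at 24 members and higher signal at 1, Ubtf. Wdr75, Ddx21, Noc3l, Polr1e and Rrp1b fell most, by 0.68, 0.59, 0.56, 0.56 and 0.55 on the log2 scale. Over all genes tested 11.5% were called lower and 14.4% higher, 25.8% in all. Among the 7543 genes with a mean signal at or above that of the lowest member, 18.4% were called lower and 19.6% higher. The members' median was -0.38, against 0.00 over all genes, with 38 of 42 below 0, against 49.8%. At 32 members the groups did not overlap, with MEK-inhibited libraries lower, against 19.6% of all genes, and at 1 they were higher, against 22.4%. At an unadjusted p under 0.05 limma called 31 members, against 36% of all genes. Library totals gave 38 lower and 0 higher, with a median of -0.77 beside the -0.37 of all genes. Here too the shares of all genes above are no background for the count. The 3 comparisons share libraries in pairs, so they are not independent of each other. Of the calls, 4 of 15, 1 of 11 and 14 of 25 held under every one of 19 alternatives, in the order of the comparisons above. They were Bysl, Ddx21, Heatr1 and Polr1e in the first comparison and Rrp12 in the middle one. In the last they were Bysl, Ddx10, Ddx18, Ddx21, Heatr1, Noc3l, Polr1a, Polr1b, Rcl1, Rrp12, Rrp1b, Wdr12, Wdr43 and Wdr75. Library totals, which are among the alternatives, moved the median of all genes down against acute libraries and up in the middle comparison. That shift favours calls of lower signal against acute libraries and works against those in the middle comparison. The counts of kept calls therefore do not rank the comparisons.

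**Figure D2:**
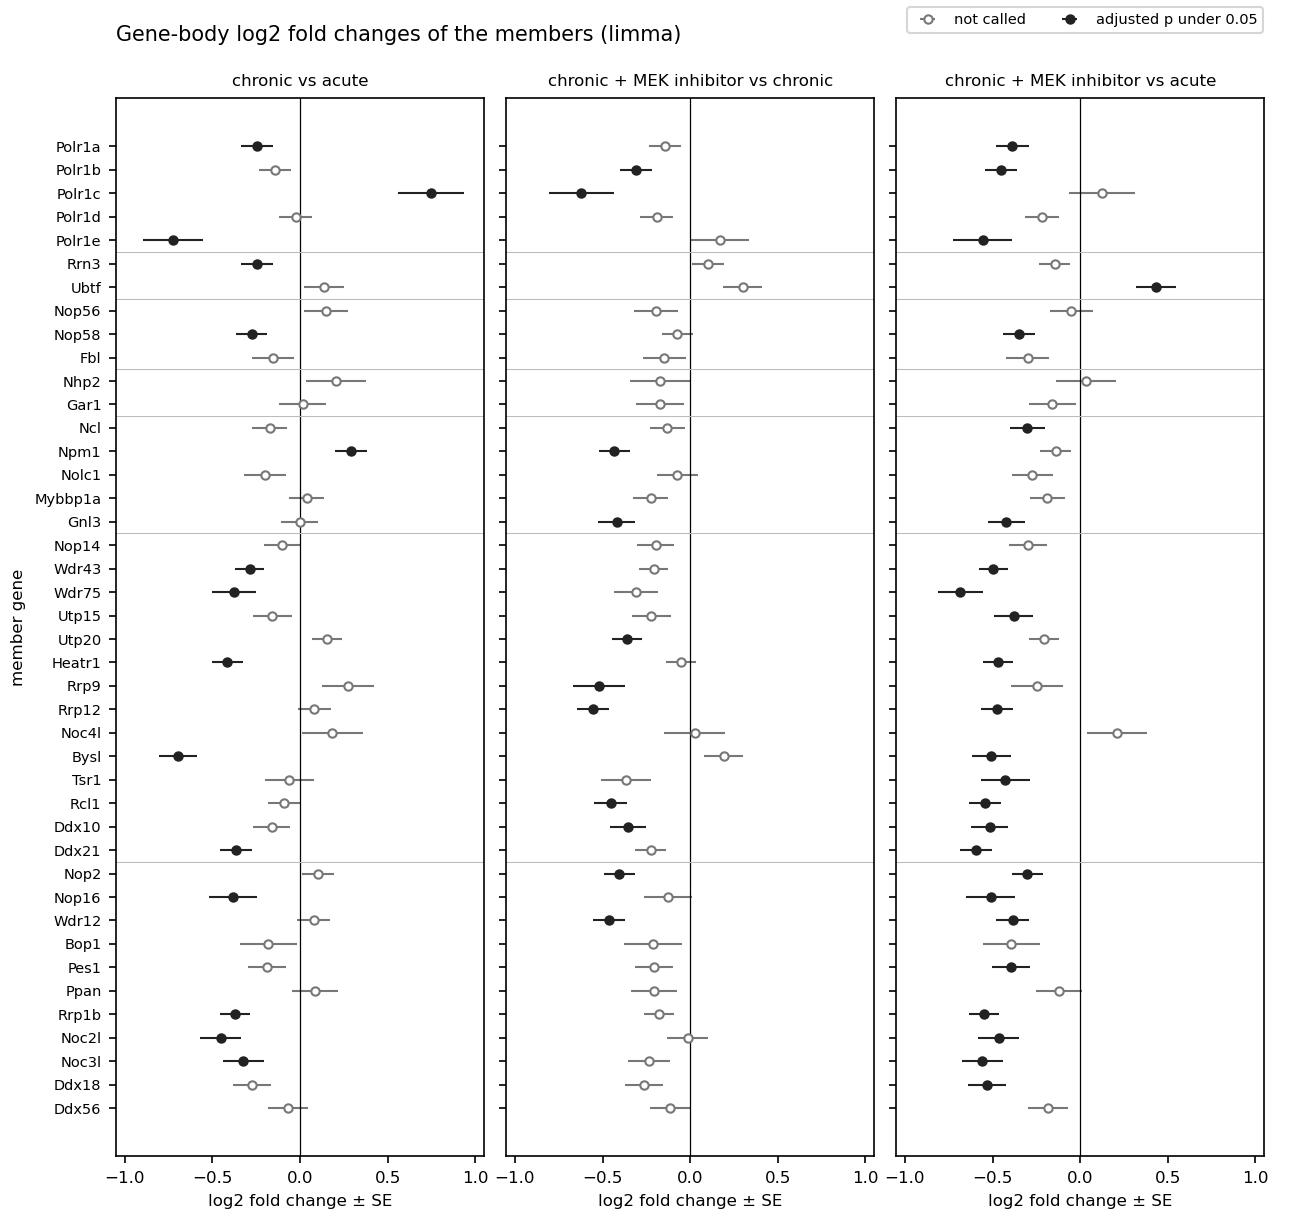
Gene-body log2 fold change with its standard error (x axis) for each member (y axis, ordered by role, with grey lines between roles) in the 3 comparisons; filled points have a limma adjusted p under 0.05. Filled points number 15, 11 and 25 from left to right, and those on the right of 0 are Polr1c and Npm1 in the left panel and Ubtf in the right panel.

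**Figure D3:**
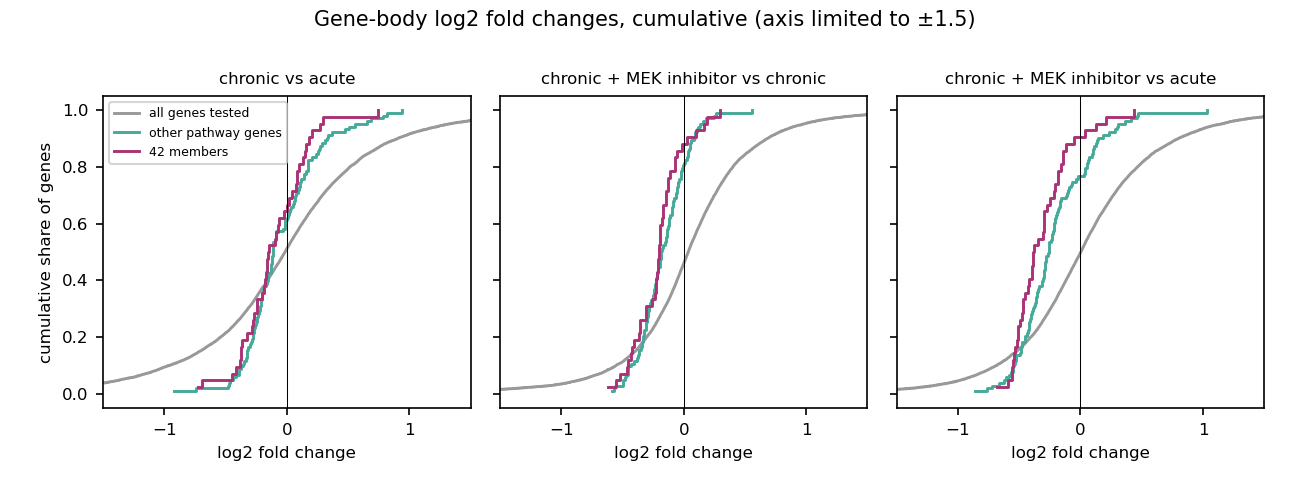
Cumulative share of genes (y axis) by gene-body log2 fold change (x axis, central range only) for the 42 members, 103 other genes of the pathway and the 15942 genes tested, in the 3 comparisons. The curves of both gene sets are steeper than that of all genes, and they cross the middle of the y axis on the left of 0, at medians of -0.15, -0.20 and -0.38 for the members.

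The Pol I subunits did not move together. Polr1a encodes the largest subunit, which with the product of Polr1b forms the catalytic centre. Polr1c and Polr1d encode a pair of subunits shared with RNA polymerase III, and Polr1e a subunit of the dimer that acts in initiation and elongation. Because Polr1c and Polr1e differed most between chronic and acute libraries, and in opposite directions, their promoters are shown, with that of Rrn3, from the RefSeq table of build GRCm38.p6. Each runs from 250 bases before to 50 after the annotated start, and capitals mark the E-box CACGTG and the ETS core CCGGAA, which reads TTCCGG on the other strand. They lie at chr17:46247996-46248295 (minus strand), chr4:45018359-45018658 (plus strand) and chr16:13780449-13780748 (plus strand). Polr1c and Polr1e hold 1 ETS core each, at 42 bases before and at base 27 after the start, and Rrn3 holds 2 of each motif.
Polr1c: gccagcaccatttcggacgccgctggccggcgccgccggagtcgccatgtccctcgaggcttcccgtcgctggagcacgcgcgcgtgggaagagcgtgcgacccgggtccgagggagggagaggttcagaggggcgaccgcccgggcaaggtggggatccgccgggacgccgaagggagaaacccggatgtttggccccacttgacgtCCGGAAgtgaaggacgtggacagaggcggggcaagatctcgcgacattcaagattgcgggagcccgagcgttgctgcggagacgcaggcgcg
Polr1e: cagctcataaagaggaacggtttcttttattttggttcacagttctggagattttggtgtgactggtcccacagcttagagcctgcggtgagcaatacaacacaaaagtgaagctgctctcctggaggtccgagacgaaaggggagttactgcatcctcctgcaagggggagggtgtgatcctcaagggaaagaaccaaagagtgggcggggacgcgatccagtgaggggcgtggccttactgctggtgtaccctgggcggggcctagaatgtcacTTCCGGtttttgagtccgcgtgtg
Rrn3: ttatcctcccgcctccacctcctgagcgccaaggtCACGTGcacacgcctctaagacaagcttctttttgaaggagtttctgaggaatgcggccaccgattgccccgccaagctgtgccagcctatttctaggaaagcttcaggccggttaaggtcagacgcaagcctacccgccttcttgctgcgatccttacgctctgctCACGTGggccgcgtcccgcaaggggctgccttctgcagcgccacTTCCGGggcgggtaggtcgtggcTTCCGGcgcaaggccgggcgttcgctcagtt

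Polr1c (chr17:46243920-46248054, minus strand) had a scaled gene-body signal of 428, 716 and 508 in acute replicates 1 to 3, of 835, 931 and 955 in chronic replicates, and of 567, 541 and 659 in MEK-inhibited replicates. All chronic libraries lay above all others. Polr1c rose by 0.75 (SE 0.19, limma adjusted p 0.00435) between chronic and acute and fell by 0.62 (adjusted p 0.0266) between MEK-inhibited and chronic libraries. Scaled to library totals, neither call held, with 0.26 (adjusted p 0.258) and -0.51 (adjusted p 0.0668), and the fall was also lost without chronic replicate 2, chronic replicate 3, MEK-inhibited replicate 1 or MEK-inhibited replicate 2, at adjusted p of 0.0818, 0.0707, 0.0615 and 0.0861. Between MEK-inhibited and acute libraries Polr1c differed by 0.13 (SE 0.19, adjusted p 0.679).

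Polr1e (chr4:45018583-45036565, plus strand) showed another order, with 796, 1047 and 948 in acute, 579, 487 and 613 in chronic, and 678, 545 and 668 in MEK-inhibited replicates. The acute libraries lay above all others, and the chronic and MEK-inhibited libraries overlapped. Its fall of 0.73 (SE 0.17, adjusted p 0.00253) between chronic and acute libraries held under all alternatives run. The fall of 0.56 between MEK-inhibited and acute libraries (adjusted p 0.0207) was not called without acute replicate 2 or MEK-inhibited replicate 2 (adjusted p 0.0522 and 0.0833). Its row overlaps Fbxo10 on the opposite strand over 2319 bases, and whether the authors' values keep strands apart is not given in the sources used here. Fbxo10 itself differed by 0.32 between chronic and acute libraries (adjusted p 0.616).

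Polr1a (chr6:71909053-71984935) had 6755, 7122 and 6680 in acute, 5594, 5932 and 5812 in chronic, and 5440, 4614 and 5718 in MEK-inhibited replicates, so acute libraries lay above all others. It fell by 0.39 (SE 0.09, adjusted p 0.00430) between MEK-inhibited and acute libraries. The smaller fall of 0.25 between chronic and acute libraries was close to the threshold (adjusted p 0.0488), and without any 1 of acute replicates 1, 2 or 3 the adjusted p was 0.0875, 0.130 and 0.0701. Leaving out chronic replicate 1 or 2, or MEK-inhibited replicate 1 or 3, gave 0.118, 0.0746, 0.0802 and 0.0525. Polr1b (chr2:129100995-129126594) had 4193, 4620 and 4014 in acute, 4127, 3766 and 3720 in chronic, and 3240, 2981 and 3148 in MEK-inhibited replicates. MEK-inhibited libraries lay below all others, with falls of 0.31 against chronic (adjusted p 0.0273) and 0.45 against acute libraries (adjusted p 0.00133). The first of these was not called without chronic replicate 1 or MEK-inhibited replicate 2 or 3 (adjusted p 0.0902, 0.0990 and 0.0706), nor under library totals, at -0.20 (adjusted p 0.358). Polr1d (chr5:147077050-147111597) had 3688, 4156 and 3704 in acute, 4112, 3727 and 3512 in chronic, and 3464, 3275 and 3183 in MEK-inhibited replicates. It passed no test, though MEK-inhibited libraries lay below all others, with differences of -0.03, -0.19 and -0.22 (SE 0.10 each) in the order of the comparisons above.

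Rrn3 (chr16:13780708-13814839), the factor that makes Pol I able to initiate, had 4747, 5077 and 5027 in acute, 4023, 3967 and 4550 in chronic, and 4336, 4330 and 4761 in MEK-inhibited replicates. Acute libraries lay above all chronic ones and overlapped the MEK-inhibited ones. The fall of 0.25 (SE 0.09) between chronic and acute libraries was close to the threshold (adjusted p 0.0444). It was not called without any 1 library other than chronic replicate 3, with adjusted p of 0.0620, 0.114 and 0.108 without acute replicates 1 to 3, 0.113 and 0.139 without chronic replicates 1 and 2, and 0.0766, 0.0504 and 0.0531 without MEK-inhibited replicates 1 to 3. Ubtf (chr11:102304560-102319742), which binds along the ribosomal DNA and holds it open, went the other way. It had 4588, 5503 and 3895 in acute, 4734, 4878 and 5640 in chronic, and 6279, 5944 and 6505 in MEK-inhibited replicates, the last group being above all others. Ubtf rose by 0.43 (SE 0.11, adjusted p 0.00794) between MEK-inhibited and acute libraries. Without acute replicate 3 that difference was 0.25 (adjusted p 0.132), without acute replicate 1 0.37 (adjusted p 0.0565) and without MEK-inhibited replicate 1 0.38 (adjusted p 0.0595). It was 0.05 (adjusted p 0.778) under library totals. Against chronic libraries it differed by 0.30 (SE 0.11, adjusted p 0.0813), and library totals (0.41, adjusted p 0.0280) or leaving out chronic replicate 3 (0.37, adjusted p 0.0313) took this past the threshold.

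**Figure D4:**
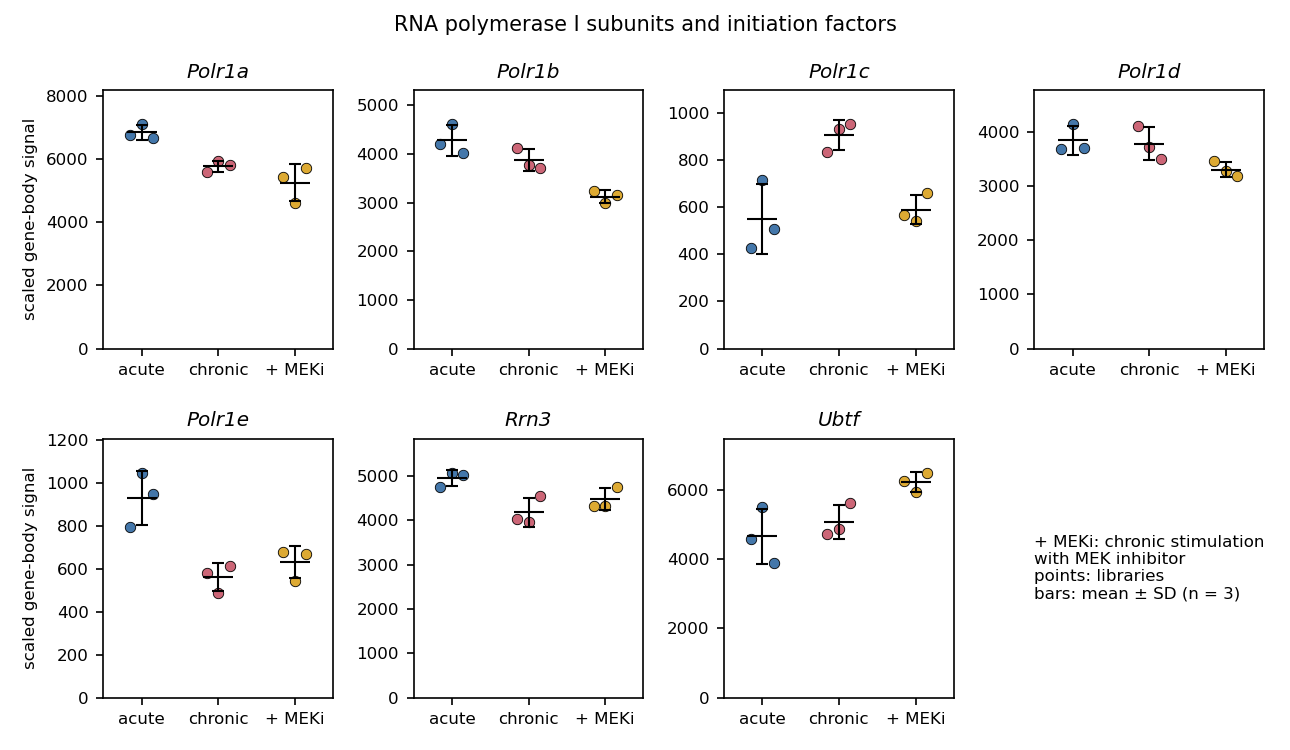
Scaled gene-body signal (y axis, from 0) of the 5 Pol I subunit genes and of Rrn3 and Ubtf in acute, chronic and MEK-inhibited (+ MEKi) libraries; points are libraries, and bars give the mean ± SD with n = 3. Polr1c is highest in the chronic group, Polr1e in the acute group and Ubtf in the MEK-inhibited group.

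The values of the Pol I genes can be set beside rows that carry ribosomal RNA-like signal. How much of that signal is newly made RNA was not tested, so it is no measure of Pol I output. Gm26917 (chr17:39843013-39846341) and Gm42418 (chr17:39846958-39848788), both on the plus strand, are annotated as long noncoding RNAs. A row annotated as rRNA (chr17:39846353-39848827, minus strand) lies beside Gm26917 and spans all of Gm42418. Whether strands were kept apart is not given, so signal there may count in more than 1 row. Of the gene-body signal summed over 1 kept row per gene, Gm26917 and Gm42418 together took 12.0%, 13.9% and 10.8% in acute replicates 1 to 3. They took 22.2%, 22.5% and 24.0% in chronic replicates, and 16.5%, 17.7% and 21.6% in MEK-inhibited replicates. No group overlapped another. The group means were 12.2% ± 1.57 in acute, 22.9% ± 0.951 in chronic and 18.6% ± 2.66 in MEK-inhibited libraries (SD, n = 3). Over all matched transcript rows, where a gene counts once for each of its rows, the shares were lower, at 4.55% ± 0.753, 10.4% ± 0.880 and 8.03% ± 1.55 (SD, n = 3). The differences of 10.7, -4.34 and 6.35 percentage points each had a two-sided exact permutation p of 0.1, also 0.1 after Benjamini-Hochberg adjustment over the 3 comparisons, the smallest that 3 against 3 libraries allow. The exact permutation p of the middle difference was 0.2 over all matched rows and 0.3 over all 4 rows of the locus.

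The members themselves took a small part of the signal, and that part was largest where the share of the ribosomal RNA-like rows was smallest. Their summed share of the same kept rows was 0.536% ± 0.0310 in acute, 0.351% ± 0.0133 in chronic and 0.324% ± 0.0202 in MEK-inhibited libraries (SD, n = 3). With the 4 rows of the locus left out of the total, it was 0.676% ± 0.0252, 0.557% ± 0.0269 and 0.475% ± 0.0122, so the order of the groups was the same. Either way the members' share was lowest in MEK-inhibited libraries, while that of the ribosomal RNA-like rows was highest in chronic ones. Shares of a total are not independent of each other.

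**Figure D5:**
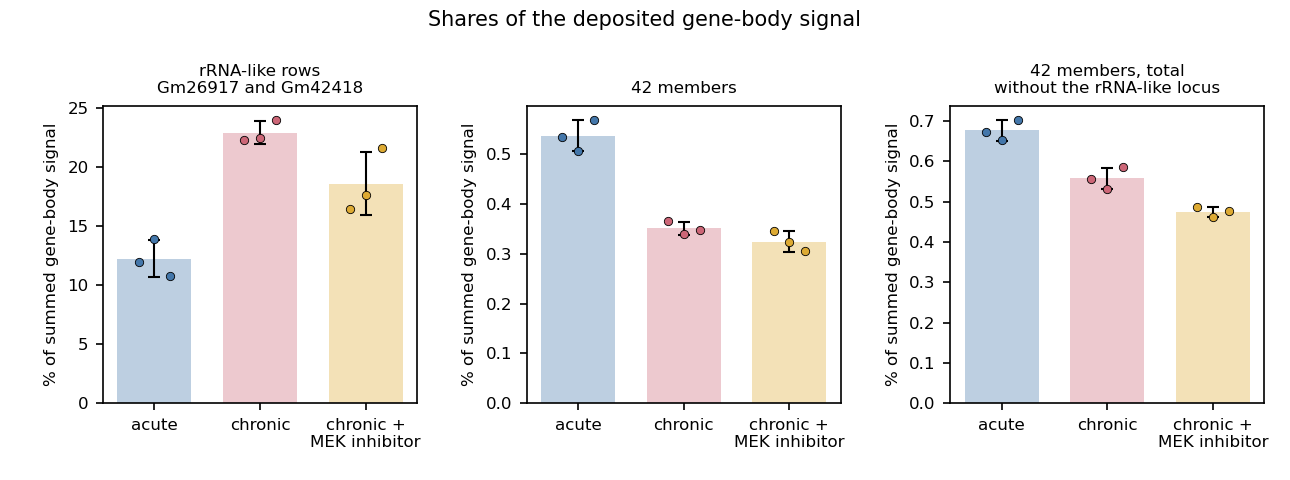
Percent of the summed deposited gene-body signal (y axes, each from 0) in the rRNA-like rows Gm26917 and Gm42418, in the 42 members, and in the members when the rRNA-like locus is left out of the total; points are libraries, and bars with whiskers are the group mean ± SD with n = 3. The left panel is highest in chronic libraries at 22.9%, while the other panels fall in steps from acute to MEK-inhibited libraries.

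Of the 5 core proteins of the snoRNPs, 1 passed a test. Nop56, Nop58 and Fbl belong to the box C/D particle, in which Fbl is the methyltransferase, and the member called was Nop58. Nop58 (chr1:59684971-59719044) had 11797, 10499 and 12751 in acute, 9135, 9440 and 10302 in chronic, and 9046, 9288 and 9088 in MEK-inhibited replicates. Acute libraries lay above all others, by 0.28 on the log2 scale against chronic (adjusted p 0.0218) and 0.35 against MEK-inhibited libraries (adjusted p 0.00657). The first call was lost when acute replicate 1, acute replicate 3, chronic replicate 1 or chronic replicate 2 was left out, at adjusted p of 0.0646, 0.109, 0.0755 and 0.0664. Nop56 (chr2:130274430-130279313) had 5740, 6212 and 6106 in acute, 5626, 6255 and 8399 in chronic, and 5993, 5136 and 6374 in MEK-inhibited replicates. All groups overlapped, and 1 value, chronic replicate 3, stood above the rest. Its differences were 0.15, -0.20 and -0.05 (adjusted p 0.391, 0.333 and 0.816), and the first was -0.02 without that library. Fbl (chr7:28169710-28179269) had 3473, 4420 and 3477 in acute, 3067, 3220 and 3925 in chronic, and 3226, 2709 and 3267 in MEK-inhibited replicates. Its differences were -0.15, -0.15 and -0.30 (SE 0.12 each, adjusted p 0.354, 0.484 and 0.0797). Nhp2 and Gar1 of the box H/ACA particle, which guides pseudouridylation, were not called in any comparison, with log2 fold changes from -0.17 to 0.20.

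Of the 5 nucleolar proteins of several functions, 1 was called higher between chronic and acute libraries, and 2 were called lower in each of the other comparisons. Npm1 (chr11:33152287-33163206), a histone and ribosome chaperone that is abundant in the granular nucleolus, had 14604, 15495 and 16130 in acute, 16730, 18957 and 21087 in chronic, and 14000, 13378 and 14538 in MEK-inhibited replicates. The 3 groups did not overlap. Npm1 rose by 0.29 (SE 0.09, adjusted p 0.0186) between chronic and acute libraries and fell by 0.43 (adjusted p 0.00216) between MEK-inhibited and chronic libraries. Under library totals the latter difference was -0.33 (adjusted p 0.0701). The rise turned to -0.20 (adjusted p 0.172) under library totals, where the median gene stood at -0.50, and was not called without acute replicate 1 or chronic replicate 2 (adjusted p 0.101 and 0.0504). Ncl (chr1:86344719-86359400), which encodes nucleolin, had 19805, 17046 and 18799 in acute, 14459, 15967 and 19207 in chronic, and 15595, 14410 and 15067 in MEK-inhibited replicates. Chronic replicate 3 lay among the acute libraries. Ncl fell by 0.30 between MEK-inhibited and acute libraries (adjusted p 0.0319), a call lost without acute replicate 1 or MEK-inhibited replicate 2 or 3 (adjusted p 0.0663, 0.0934 and 0.0876). Between chronic and acute libraries it differed by -0.17 (adjusted p 0.197), and by -0.28 (adjusted p 0.00712) without chronic replicate 3. Gnl3, the GTP-binding nucleolar protein nucleostemin, fell by 0.42 in MEK-inhibited libraries against both other groups (adjusted p 0.00947 against chronic and 0.00638 against acute). Its difference from chronic libraries was -0.31 under library totals (adjusted p 0.116). Nolc1 and Mybbp1a were not called, with differences from -0.27 to 0.04.

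Of the 14 assembly factors of the small subunit, 5 fell between chronic and acute, 5 between MEK-inhibited and chronic and 10 between MEK-inhibited and acute libraries, and none rose. Bysl (chr17:47599331-47611492), a late assembly factor, had 3461, 3939 and 3825 in acute, 2657, 2160 and 2127 in chronic, and 2661, 2835 and 2406 in MEK-inhibited replicates. All acute libraries lay above all others, and Bysl fell by 0.70 (SE 0.11, adjusted p 6.87e-05) in chronic and by 0.51 (adjusted p 0.00202) in MEK-inhibited libraries. Over 2.97% of its length it overlaps Ccnd3 on the opposite strand, which differed by -1.21 between chronic and acute libraries. Ccnd3 also differed by 0.36 between MEK-inhibited and chronic and by -0.85 between MEK-inhibited and acute libraries. Whether strands were kept apart is not given, and the part of Ccnd3 in the Bysl values was not tested. Heatr1 (chr13:12395027-12440289), of the t-UTP group that links Pol I transcription to early processing, also stood highest in acute libraries. It had 6314, 5952 and 6803 in acute, 4692, 4772 and 4817 in chronic, and 4414, 4584 and 4772 in MEK-inhibited replicates. Heatr1 fell by 0.41 (SE 0.09, adjusted p 0.000991) and 0.47 (adjusted p 0.000482) against acute libraries, while MEK-inhibited and chronic libraries overlapped and differed by -0.05 (SE 0.09).

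Other small subunit factors fell between MEK-inhibited and chronic libraries. Rrp12 (chr19:41862851-41896173), which acts in maturation and export of pre-ribosomes, had 3268, 3679 and 3435 in acute, 3798, 3556 and 3629 in chronic, and 2385, 2569 and 2511 in MEK-inhibited replicates. It fell by 0.56 (SE 0.09, adjusted p 0.000244) against chronic and 0.47 (adjusted p 0.000772) against acute libraries, which overlapped each other. Rcl1 (chr19:29101375-29143929), needed for an early cleavage of the precursor, had 4879, 4976 and 4215 in acute, 4383, 4492 and 4307 in chronic, and 3254, 3293 and 3075 in MEK-inhibited replicates. It fell by 0.45 (adjusted p 0.00157) and 0.54 (adjusted p 0.000209) against these groups, and under library totals by 0.35 against chronic libraries (adjusted p 0.0743). Rrp9 (chr9:106475963-106485424), a protein of the U3 snoRNP, had 1575, 1923 and 1407 in acute, 1875, 1668 and 2402 in chronic, and 1511, 1238 and 1360 in MEK-inhibited replicates. MEK-inhibited libraries lay below the chronic ones but overlapped the acute ones, from which they differed by -0.25 (adjusted p 0.247). The fall of 0.52 (SE 0.15, adjusted p 0.0190) of Rrp9 against chronic libraries was -0.37 (adjusted p 0.0926) without chronic replicate 3. Without MEK-inhibited replicate 2 or 3 its adjusted p was 0.0763 and 0.0606, and under library totals 0.0711. Utp20 and Ddx10 also fell against chronic libraries, by 0.36 (adjusted p 0.00529) and 0.35 (adjusted p 0.0238). Against acute libraries Utp20 was not called, at -0.21 (adjusted p 0.0843), and Ddx10 fell by 0.52 (adjusted p 0.00109). Under library totals these differences were -0.25 and -0.25 (adjusted p 0.199 and 0.298), and that of Ddx10 was also lost when chronic replicate 1, chronic replicate 2, MEK-inhibited replicate 2 or MEK-inhibited replicate 3 was left out, at adjusted p of 0.0700, 0.119, 0.0815 and 0.0588.

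For the helicase gene Ddx21 (chr10:62580251-62602281), whose product acts at the ribosomal DNA and in pre-rRNA processing, the groups fell in steps. It had 10824, 10485 and 10857 in acute, 7308, 8552 and 9184 in chronic, and 7269, 6894 and 7152 in MEK-inhibited replicates, with no overlap between groups. Ddx21 fell by 0.37 (SE 0.09, adjusted p 0.00391) between chronic and acute and by 0.59 (adjusted p 7.26e-05) between MEK-inhibited and acute libraries. Its difference of -0.23 between MEK-inhibited and chronic libraries was not called (adjusted p 0.0996), but was without acute replicate 2 (-0.29, adjusted p 0.0306) or chronic replicate 1 (-0.32, adjusted p 0.0177). Wdr75 (chr1:45795166-45823619), another t-UTP protein, had 5126, 4718 and 5896 in acute, 4141, 3215 and 4892 in chronic, and 3271, 3278 and 3203 in MEK-inhibited replicates. MEK-inhibited values kept close together while chronic ones spread from within their range to within the acute range. Wdr75 fell by 0.68 (SE 0.13, adjusted p 0.000540) between MEK-inhibited and acute libraries. The fall of 0.38 between chronic and acute libraries (adjusted p 0.0284) was -0.21 (adjusted p 0.185) without chronic replicate 2, and leaving out acute replicate 1, acute replicate 3 or chronic replicate 1 gave adjusted p of 0.0631, 0.139 and 0.0528. Against chronic libraries the MEK-inhibited ones differed by -0.31 (adjusted p 0.112), and by -0.47 (adjusted p 0.0110) without chronic replicate 2. Wdr43, which belongs to the same early complex, fell by 0.29 and 0.50 in chronic and MEK-inhibited libraries against acute ones (adjusted p 0.0107 and 0.000170). Ddx10, Utp15 and Tsr1 were the further members called between MEK-inhibited and acute libraries, at -0.52, -0.38 and -0.43. Utp15 was not called without MEK-inhibited replicate 2 (adjusted p 0.0810). Tsr1 was not called without acute replicate 3, chronic replicate 2 or MEK-inhibited replicate 1 or 2 (adjusted p 0.0898, 0.0542, 0.0522 and 0.120). Over 26.5% of its length the Tsr1 row overlaps Srr on the opposite strand. Srr differed by -0.23 between MEK-inhibited and acute libraries (limma adjusted p 0.205). Nop14 and Noc4l were not called in any comparison, with log2 fold changes from -0.30 to 0.21.

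Of the 11 large subunit factors, 4, 2 and 8 were called lower in the 3 comparisons and none higher. Rrp1b (chr17:32036100-32062865), a nucleolar protein of pre-rRNA processing, had 11342, 12173 and 10551 in acute, 9172, 8493 and 8608 in chronic, and 8082, 7279 and 7858 in MEK-inhibited replicates. The groups did not overlap. Rrp1b fell by 0.37 (SE 0.09, adjusted p 0.00226) and 0.55 (adjusted p 8.79e-05) against acute libraries. Noc2l (chr4:156236010-156247616) and Noc3l (chr19:38788128-38819237) encode partners in complexes that carry pre-ribosomes out of the nucleolus. Noc2l had 4479, 5237 and 4424 in acute, 3892, 2944 and 3533 in chronic, and 3847, 3094 and 3302 in MEK-inhibited replicates. It fell by 0.45 (SE 0.12, adjusted p 0.00537) and 0.47 (adjusted p 0.00587) against acute libraries, and chronic and MEK-inhibited libraries overlapped. Noc3l had 2753, 2555 and 2822 in acute, 2412, 2026 and 2071 in chronic, and 2161, 1646 and 1741 in MEK-inhibited replicates. Its fall between MEK-inhibited and acute libraries was 0.56 (adjusted p 0.00164), and that between chronic and acute libraries 0.32 (adjusted p 0.0425). The latter was lost when acute replicate 1, acute replicate 3, chronic replicate 2, chronic replicate 3 or MEK-inhibited replicate 3 was left out, at adjusted p of 0.0964, 0.111, 0.140, 0.0964 and 0.0526.

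Wdr12 and Nop2 fell with MEK inhibition. Wdr12 (chr1:60069785-60098645), which with Pes1 and Bop1 forms the PeBoW complex, had 3155, 2873 and 3173 in acute, 3279, 3314 and 3111 in chronic, and 2442, 2324 and 2274 in MEK-inhibited replicates, the last group being below all others. It fell by 0.46 (SE 0.09, adjusted p 0.00152) against chronic and 0.38 (adjusted p 0.00477) against acute libraries. Under library totals the first of these was -0.36 (adjusted p 0.0870). Pes1 fell by 0.40 between MEK-inhibited and acute libraries (adjusted p 0.0104, and 0.0547 without MEK-inhibited replicate 3). Over 79.9% of its length the Pes1 row overlaps 4930556J24Rik on the opposite strand, which differed by -0.43 in that comparison (adjusted p 0.00607). Whether strands were kept apart is not given, so this fall cannot be assigned to Pes1 alone. Bop1 was not called, at -0.39 (SE 0.16, adjusted p 0.0973). Nop2, an RNA methyltransferase, fell by 0.40 against chronic (adjusted p 0.00313) and 0.30 against acute libraries (adjusted p 0.0170), the latter not without MEK-inhibited replicate 2 (adjusted p 0.0877). Under library totals its difference from chronic libraries was -0.30 (adjusted p 0.111). Nop16 fell by 0.38 and 0.51 in chronic and MEK-inhibited libraries against acute ones (adjusted p 0.0388 and 0.00979). Its call between chronic and acute libraries was lost when acute replicate 2, acute replicate 3, chronic replicate 1, chronic replicate 2 or MEK-inhibited replicate 1 was left out, at adjusted p of 0.0994, 0.109, 0.154, 0.0798 and 0.0613. The helicase gene Ddx18 fell by 0.53 between MEK-inhibited and acute libraries (adjusted p 0.00119). Ddx56 and Ppan were not called in any comparison, with differences from -0.20 to 0.09.

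Another 103 genes of the pathway, taken from a list of further assembly factors, snoRNP assembly factors and Pol I machinery, can be read beside the members. Of these, 19 were lower and 10 higher between chronic and acute, 20 lower and 0 higher between MEK-inhibited and chronic, and 38 lower and 2 higher between MEK-inhibited and acute libraries. Those called lower were 18.4%, 19.4% and 36.9% of the 103, against 15.9%, 7.65% and 11.5% of all genes tested, so the first share was near the background. Those called higher were 9.71%, 0% and 1.94%, against 18%, 9.93% and 14.4%. Their medians were -0.12, -0.19 and -0.26. The 38 further large subunit factors had 9, 8 and 20 members called lower, among them Mdn1, the giant ATPase of large subunit maturation, which fell by 0.76 between MEK-inhibited and acute libraries (SE 0.08, adjusted p 1.99e-06). Eif6, which keeps the large subunit from joining too early, rose by 0.68 (adjusted p 0.00182) between chronic and acute and fell by 0.56 (adjusted p 0.0151) between MEK-inhibited and chronic libraries. Of 41 further small subunit factors, 6, 9 and 15 were called lower and 5, 0 and 1 higher. Twistnb, a stalk subunit of Pol I, fell by 0.74 (adjusted p 0.000722) in chronic and 0.63 (adjusted p 0.00399) in MEK-inhibited libraries against acute ones. Cd3eap, which encodes the partner of the Polr1e product in its dimer, fell by 0.45 between MEK-inhibited and chronic libraries (adjusted p 0.0493). Naf1, an assembly factor of H/ACA particles, fell by 0.92 (adjusted p 1.12e-06) and 0.86 (adjusted p 3.99e-06) against acute libraries. In comparison, of 7 RNA polymerase II subunits 1, 0 and 2 were called higher and none lower, and of 20 genes of the RNA polymerase III machinery 2, 3 and 3 were called higher and 3, 2 and 3 lower. Of 13 RNA exosome genes, 2, 0 and 1 were called higher and 2, 0 and 3 lower. The shares of all genes just given are the background for these lists too.

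Near the transcription start the members gave few calls. Between chronic and acute libraries 1 of 40 members was called lower and 0 higher, against 5.35% and 5.37% of all genes tested in the pause region and 10.7% in all. That member was Pes1, with pause-region signal of 382, 322 and 403 in acute, 144, 234 and 192 in chronic, and 188, 246 and 187 in MEK-inhibited replicates. Acute libraries lay above all others, and Pes1 fell by 0.96 (SE 0.24, adjusted p 0.00950) in chronic libraries, a call that did not hold without chronic replicate 1. Its kept row overlaps 4930556J24Rik on the opposite strand over 79.9% of its length. Between MEK-inhibited and chronic libraries limma called 0 members, against 1.43% lower and 1.56% higher over all genes and 3% in all. Between MEK-inhibited and acute libraries 3 members were lower and 0 higher, against 2.51% and 3.44% of all genes and 5.95% in all. They were Polr1a (-1.21, adjusted p 0.0482), Pes1 (-0.83, adjusted p 0.0405) and Ddx21 (-0.61, adjusted p 0.0491), all close to the threshold. None was called without acute replicate 1 or without any 1 of the MEK-inhibited replicates, 1 without acute replicate 3 and 5 without acute replicate 2. Polr1a had only 155, 95.0 and 147 in acute, 122, 106 and 63.4 in chronic, and 42.4, 74.8 and 46.9 in MEK-inhibited replicates there.

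Below the threshold, most pause-region values of the members were on the lower side. At an unadjusted p under 0.05 limma called 4, 10 and 14 of the 40 members in the 3 comparisons, against 23%, 13.9% and 18.9% of all genes. The log2 fold change was below 0 at 26, 31 and 33 members, against 49.2%, 49.4% and 49.9% of all genes. Groups did not overlap at 5, 10 and 13 members in the lower direction, against 11.7%, 10.5% and 12.1% of all genes, and at 2, 1 and 1 in the higher direction, against 12.6%, 9.76% and 12.6%. Pausing was taken as the log2 signal of the pause region minus that of the gene body, and limma called it at 0 of 7413 genes and 0 members in all 3 comparisons. At an unadjusted p under 0.05 it differed at 3, 1 and 0 members, against 10.1%, 5.31% and 7.97% of all genes. It was below 0 at 21, 21 and 22 members, against 53.3%, 50.2% and 52.4%.

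Promoter sequences were at hand for 38 of the 42 members. The E-box CACGTG, to which MYC and MAX bind and which reads the same on both strands, was in 7 of the 38 (18.4%), against 7.15% of all 32851 promoters of the table and 9.65% of the 10797 promoters of tested genes. The ETS core CCGGAA, searched on both strands with overlapping matches counted apart, was in 17 (44.7%), against 14.9% and 27.1%. The letters of the motifs cannot overlap each other. Among 85 further genes of the pathway with a promoter the shares were 21.2% and 62.4%. Nop2 and Tsr1, both lower in MEK-inhibited than in acute libraries, hold both motifs within the stretch around the start, as does Rrn3 above. Nop2 (chr6:125131633-125131932, plus strand) has the E-box 60 and ETS cores 52 and 38 bases before the start. In Tsr1 (chr11:74897830-74898129, plus strand) the ETS cores lie 21 bases and 1 base before the start, and the E-box at base 25 after it.
Nop2: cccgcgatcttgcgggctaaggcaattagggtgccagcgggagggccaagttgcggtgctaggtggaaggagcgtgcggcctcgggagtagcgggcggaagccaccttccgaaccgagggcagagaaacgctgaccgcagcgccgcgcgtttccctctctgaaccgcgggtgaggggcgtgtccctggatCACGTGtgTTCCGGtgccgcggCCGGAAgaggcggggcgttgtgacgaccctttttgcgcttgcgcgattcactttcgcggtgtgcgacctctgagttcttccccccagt
Tsr1: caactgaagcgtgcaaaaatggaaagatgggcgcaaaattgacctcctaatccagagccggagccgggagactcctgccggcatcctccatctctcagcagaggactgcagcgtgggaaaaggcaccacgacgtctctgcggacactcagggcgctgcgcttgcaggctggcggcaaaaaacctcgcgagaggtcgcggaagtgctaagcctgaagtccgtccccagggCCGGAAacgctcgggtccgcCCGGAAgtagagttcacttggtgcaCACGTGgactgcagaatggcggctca

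The calls can be counted by motif. Between MEK-inhibited and acute libraries 10 of 17 members with an ETS core and 13 of 21 without one were lower, with medians of -0.35 and -0.39. With an E-box 4 of 7 were lower, and without one 19 of 31. Between MEK-inhibited and chronic libraries 4 of 17 members with and 5 of 21 without an ETS core were lower, and between chronic and acute libraries 7 and 6. A match of letters is a description and shows no binding.

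Gene structure was also set beside the calls. Of the members 7 carry snoRNA genes inside them (Nop56, Nop58, Ncl, Gnl3, Wdr43, Tsr1 and Ppan), of which 2, 1 and 5 were called lower in the 3 comparisons, with medians of -0.06, -0.20 and -0.35. Over the other 35 members the medians were -0.15, -0.20 and -0.38. The genes of 19 members overlap another gene. For the 23 that overlap none, 6, 7 and 12 were called lower and 2, 0 and 1 higher, with medians of -0.14, -0.22 and -0.30.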

How the data were processed

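Nascent RNA labelled with 5-ethynyl uridine was measured in 9 libraries, 3 per group. Per the submitters' processing notes, FastQC 0.12.0, Trim Galore 0.6.10, STAR 2.7.0a, SAMtools 1.19.2 and R 4.1.2 were used with the build mm10. The counting tool, its use of strand, the annotation and the region coordinates are not given in the sources used here. The deposited values are summed coverage signal per transcript row in the gene body and the pause region, not read counts: in each library, values under 20 steps are whole multiples (within 0.01 step) of a step of 0.764 to 1.06, and 4 steps are more frequent than 3 or 5. No count test was therefore used.

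Rows were named from GENCODE M21 annotation (GRCm38): of 118482 rows, 117346 had the same transcript ID and version, 383 the same ID only, and the remaining 753 were dropped. The row with the largest mean was kept per gene. Scaling used a trimmed mean of log ratios without weights (30% of ratios and 5% of levels trimmed). Genes that reached a signal of 50 in 3 or more libraries were fitted as log2(signal + 5) with limma 3.58.1 in R 4.3.3, with a trend, robust moderation and group means over all 9 libraries, so fold changes are on that scale and understate those of low genes. P-values were adjusted by Benjamini-Hochberg over all genes tested, with a threshold of 0.05. Shares were compared by two-sided exact permutation tests in Python 3.11.15. The fit was tested on simulated data with changes in few genes of 1 group. There it missed most changes of both sizes tried, and more of the smaller ones. Among genes of low spread it found most of the larger changes and missed most of the smaller ones. In the real data far more genes were called, and the members have smaller standard errors. The share missed in the simulation thus does not carry over to the members. A gene that was not called is therefore not shown to be unchanged.

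The members, gene lists and comparisons were chosen with earlier results of these data known. The labels give the groups of all 9 libraries. Library values are given for the Pol I subunits and initiation factors, the box C/D core, Npm1, Ncl and the 5 called members with the largest change in each gene-body comparison. The alternatives covered scaling, pseudocount, filter, choice of transcript, moderation, a replicate block, the groups fitted, and leaving out each library.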

Additional observations from a re-analysis of the deposited data

How the results depend on the processing

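Over 84 results for named members and 1596 alternatives to them, 1382 kept direction and side of the threshold, 136 lost a call, 43 gained one and 35 changed sign. The cause was not tested, except that scaling to totals or keeping the deposited scale moves all genes by construction. For counts under these scalings, in the gene body and the pause region, the shares of all genes given above are no background.

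Between chronic and acute libraries the count of called gene-body members was 37 with library totals and 37 on the deposited scale, 5 with no filter on low values and 7 with no trend or robust moderation, and leaving out a library gave 8 to 17. Between MEK-inhibited and chronic libraries these counts were 2, 2, 7 and 6, with a range of 7 to 16. Between MEK-inhibited and acute libraries they were 38 and 38 under both scalings, with a range of 20 to 30. The median of the members between chronic and acute libraries was -0.64 with totals, -0.62 as deposited and -0.31 with totals less the rRNA-like rows (left out in turn, -0.160 to -0.086). Between MEK-inhibited and chronic libraries it was -0.098, -0.074 and, with no filter, -0.28 (-0.278 to -0.154). MEK-inhibited against acute libraries gave medians of -0.77, -0.72 and -0.55, and -0.30 over members that overlap no gene, an alternative chosen after seeing the data (-0.453 to -0.324).

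In the pause region, chronic against acute libraries gave 17 called members with totals, 0 with no filter and 0 with no trend (0 to 2 with libraries left out). MEK-inhibited against chronic libraries gave 1 with the replicate block and 1 with only both groups fitted (0 to 1). MEK-inhibited against acute libraries gave 12 with totals, 0 on the deposited scale, 0 with totals without rRNA-like rows, 1 with a pseudocount of 0.5, 0 with no filter and 0 with no trend (0 to 5). Pausing gave 0 throughout. Leaving out libraries, the difference in the rRNA-like share ranged from 9.97 to 11.5, from -5.83 to -3.29 and from 4.85 to 7.39 percentage points.

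Signs of log2 differences changed as follows. Between chronic and acute libraries, with totals, as deposited and with totals less the rRNA-like rows, Nop56 was at -0.34, -0.33 and -0.012, Rrp12 at -0.41, -0.39 and -0.076, Ubtf at -0.36, -0.34 and -0.024, and Wdr12 at -0.41, -0.40 and -0.081. With totals and on the deposited scale, Npm1 was at -0.20 and -0.18 and Rrp9 at -0.22 and -0.20. Between MEK-inhibited and chronic libraries Heatr1 was at 0.053 and 0.077, Noc2l at 0.092 and 0.12, Nop58 at 0.034 and 0.058, and Ncl, on the deposited scale only, at 0.00095. Polr1c between MEK-inhibited and acute libraries was at -0.26, -0.22 and -0.043 under the 3 scalings. Leaving out a library turned Nop56 between chronic and acute to -0.018 (without chronic replicate 3, in a range up to 0.27) and between MEK-inhibited and acute to 0.027 (without MEK-inhibited replicate 2, in a range down to -0.14). Polr1d between chronic and acute turned to 0.040 and 0.029 (without acute replicate 2 or chronic replicate 3), and Polr1c between MEK-inhibited and acute to -0.095 (without acute replicate 1, in a range up to 0.28). Noc2l between MEK-inhibited and chronic turned to 0.075, 0.0050, 0.049 and 0.0076 (without chronic replicates 1 and 3 and MEK-inhibited replicates 2 and 3, in a range down to -0.16). None of these had been called except Npm1. With totals and as deposited, Nop56, Rrp12, Ubtf and Wdr12 between chronic and acute libraries were called lower, in the new direction, at limma adjusted p from 0.0125 to 0.0418.

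Replicate numbers did not pair the libraries: deviations of 9 same-numbered pairs correlated at -0.53 to 0.098. The 18 pairs of other numbers ran from -0.37 to 0.51, with 5 above 0.1, and the highest was acute replicate 2 with MEK-inhibited replicate 1. What links such libraries was not tested, and the main fit treats all 9 as independent. A replicate block gave 16, 12 and 27 called members in the gene body. Depth in reads is unknown, so no interval from counting can be given.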
